A study of Homo sapiens with 18 samples.

Results

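Cytosolic ribosomal protein genes encode the proteins that, with ribosomal RNA, build the large and small subunits of the ribosome. They were taken here as symbols of RPL or RPS, digits and an optional A, together with RPS4X, RPS27L, RPL22L1, RPLP0, RPLP1, RPLP2 and RPSA, with pseudogenes left out. Of 79 such symbols, 74 had a mean of at least 10 normalized counts in both tables, of 25369 genes listed in each: 44 of the large subunit, 28 of the small subunit and the paralogs RPL22L1 and RPS27L. RNA was sequenced from 2 human mantle cell lymphoma lines, JEKO1 and MAVER, a cancer of B cells. The groups of 3 libraries each, all taken at 6 h, were JEKO1 with IB, MAVER with KPT, MAVER with PU, MAVER with IB, and DMSO, the solvent control, in JEKO1 and in MAVER. The series description names 2 inhibitors, and IB is read here as its ibrutinib, which blocks the kinase BTK downstream of the B cell receptor, given at 0.4 µM. KPT is read as its selinexor, which blocks the nuclear export receptor XPO1, given at 1.5 µM. What PU stands for is not stated. Each line is a single established cell line, and nothing says how replicate cultures were kept apart, so p-values measure only the spread between these libraries.

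Ribosomal protein mRNAs are among the most abundant transcripts of a growing cell. In vertebrates they typically begin with a C followed by a run of pyrimidines, the 5′ terminal oligopyrimidine (TOP) motif, through which mTOR signalling and the RNA-binding protein LARP1 control their translation and stability. Their proteins enter the nucleus, are assembled on ribosomal RNA in the nucleolus, and leave again as pre-ribosomal subunits, an export step that uses XPO1.

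The series holds 8764566 to 12627963 recovered reads per JEKO1 library and 5374226 to 17040599 per MAVER library. All 6 B cell markers and both mantle cell lymphoma markers checked were above the minimum in each line. The 11 markers of T cells, myeloid cells, fibroblasts and red cells summed to 5.73 to 16.7 normalized counts in JEKO1 libraries, with 6 of 11 at 0 throughout, and to 1.56 to 7.13 in MAVER libraries, with 8 of 11 at 0. Between the lines, 1415 genes were called with IB in both, and 1260 of them (89.0%) in opposite directions. Exchanged IB and DMSO labels in JEKO1 or in MAVER and an opposite response of the lines cannot be told apart from these files. The JEKO1 groups are named as "labelled IB" and "labelled DMSO" wherever a direction is drawn. MAVER groups are named by their labels as given, and every MAVER comparison with IB or DMSO rests on those labels. The tables of the lines were normalized separately, and no level is compared between lines.

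Promoter entries from RefSeq (build GRCh38.p14) were matched for 61 of the 74 genes, with 76 listed starts. At 44 of the 61 genes (72.1%) a listed start was a C followed by at least 4 pyrimidines, against 5.14% of 27305 genes with an entry. A start of this form lay within 5 bases of a listed start in 83.6% of the 61 genes and in 25.2% of all genes. The sequences below are shown because they carry the motif shared by most of these genes, and because they contrast the genes whose values are described later. Each gives 15 bases before the listed start and 15 from it, 5′ to 3′ on the coding strand, with the pyrimidine run from the start base in capitals.
RPL13A, chr19:49487593-49487622, plus strand: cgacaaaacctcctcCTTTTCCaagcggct
RPSA, chr3:39406705-39406734, plus strand: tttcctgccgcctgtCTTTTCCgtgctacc
RPLP0, chr12:120201097-120201126, minus strand: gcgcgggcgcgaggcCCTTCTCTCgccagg
RPLP1, chr15:69452803-69452832, plus strand: gtataggcgcgagagCCCCTTTCCTCagct
RPL11, chr1:23691791-23691820, plus strand: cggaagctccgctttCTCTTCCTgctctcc
RPL39, chrX:119791616-119791645, minus strand: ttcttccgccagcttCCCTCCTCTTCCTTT
RPL22, chr1:6199581-6199610, minus strand: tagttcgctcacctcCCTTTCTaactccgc
RPL22L1, chr3:170870181-170870210, minus strand: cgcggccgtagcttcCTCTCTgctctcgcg
RPS27, chr1:153990747-153990776, plus strand: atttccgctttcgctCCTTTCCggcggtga
RPS27L, chr15:63157463-63157492, minus strand: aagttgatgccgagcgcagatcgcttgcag
RPS29, chr14:49598696-49598725, minus strand: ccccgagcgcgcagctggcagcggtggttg
RPL22 and its paralog RPL22L1 both had the motif at the listed start, whereas RPS27 had it and its paralog RPS27L did not. RPS29, RPS4X and RPS27L were among the 17 genes without such a start at a listed position. The ETS-type motif CCGGAAG, searched on both strands of windows from 250 bases before to 50 after the start, was in 34.4% of the 61 genes and 12.2% of all genes. The letters AAGATGG were in 13.1% and 7.11%, GGGCGG in 59% and 48.3%, CACGTG in 6.56% and 8.77%, and TATAAA in 9.84% and 14%. CCGGAAG ends in the letters AAG that begin AAGATGG, so a single stretch can count for both, and a match is only a description of the window.

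Summed over each library, the 74 genes had a smaller share of reads in JEKO1 labelled IB and larger shares in the treated MAVER groups than in the DMSO libraries. They took 3.71%, 3.75% and 3.81% of recovered reads in the JEKO1 libraries labelled IB, against 4.46%, 4.55% and 4.44% in those labelled DMSO. In MAVER the share was 5.88%, 5.96% and 6.02% with KPT. PU libraries had 5.60%, 5.75% and 5.54%, and IB libraries 5.06%, 5.04% and 4.88%, against 4.73%, 4.69% and 4.76% with DMSO. No library of a treated group overlapped its DMSO group. The mean shares were 3.76 ± 0.0492% for JEKO1 labelled IB and 4.48 ± 0.0579% for JEKO1 labelled DMSO (SD, n = 3 each), a ratio of 0.838. Those in MAVER were 5.95 ± 0.0678% with KPT, 5.63 ± 0.109% with PU, 4.99 ± 0.0970% with IB and 4.73 ± 0.0350% with DMSO (SD, n = 3 each), giving ratios to DMSO of 1.26, 1.19 and 1.06. These are shares of sequenced RNA: more ribosomal protein mRNA per cell and less of other mRNAs cannot be told apart, nor in bulk samples can fewer cells of a type and less RNA per cell.

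**Figure D1:**
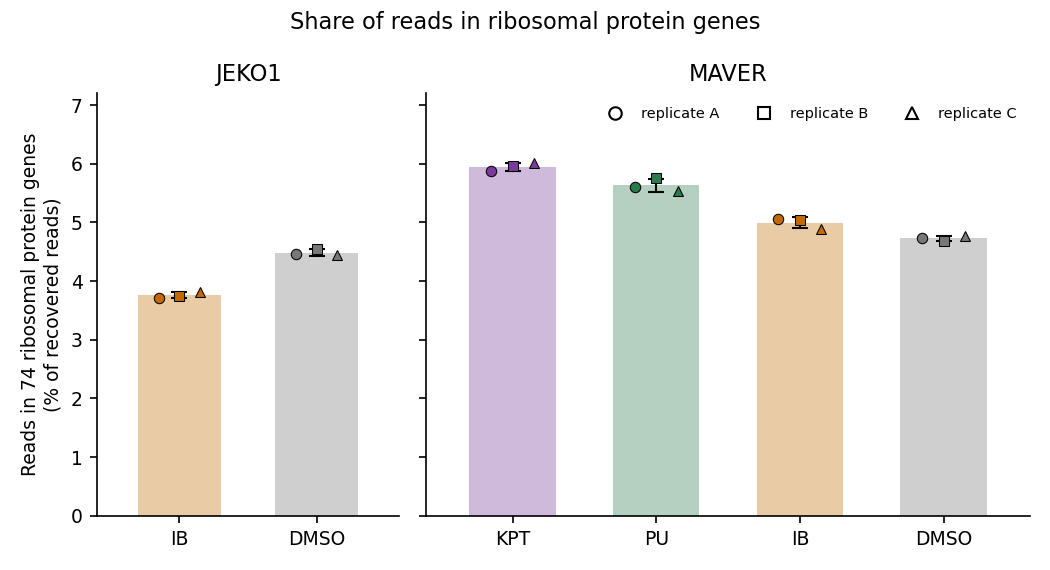
Reads assigned to 74 ribosomal protein genes as a percentage of the recovered reads of each library (y axis) in JEKO1 and MAVER groups (x axis); bars are means, error bars SD and points the 3 libraries of a group. The JEKO1 libraries labelled IB lie between 3.71% and 3.81%, below those labelled DMSO, and the KPT libraries lie between 5.88% and 6.02%, the highest of the MAVER groups.

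Of the 4 comparisons with DMSO, KPT in MAVER had the most genes called. With limma on log2(normalized count + 1) and Benjamini-Hochberg adjustment over all genes tested, called under 0.05, 67 of 74 genes rose and 1 fell, where 27.3% of the 11099 genes tested rose and 28.5% fell. The median log2 fold change was 0.34 over the 74 genes and -0.0014 over all genes tested. By subunit, 40 of 44 large-subunit genes rose (median 0.32) and 26 of 28 small-subunit genes rose (median 0.36). Groups did not overlap for 66 genes (89.2%), against 60.4% of all genes tested. Of these, 65 were higher and 1 lower with KPT, where the shares over all genes were 29.8% and 30.7%. The 6 genes not called were RPL17, RPL22, RPL36A, RPL41, RPS26 and RPS27, and 5 of them, all but RPL22, are among the 7 genes with a mean under 200 normalized counts in either table.

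The stalk of the large subunit, formed by RPLP0, RPLP1 and RPLP2 and contacted by elongation factors, rose as a whole. RPLP0 had 17406, 16825 and 17706 normalized counts with KPT, against 12897, 12185 and 11772 with DMSO; its log2 fold change was 0.50 ± 0.04 (SE; limma, adjusted p = 3.8e-14). RPLP1 rose by 0.53 ± 0.05 (1.02e-12) and RPLP2 by 0.34 ± 0.05 (2.31e-07) on the same scale. All KPT libraries lay above all DMSO libraries for each of the 3. RPL5 and RPL11, which carry 5S ribosomal RNA and can bind the p53 regulator MDM2, rose by 0.28 ± 0.04 (limma adjusted p = 5.64e-08) and 0.38 ± 0.04 (1.05e-09).

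RPSA, a small-subunit protein also described as a laminin receptor precursor, had the largest rise. It had 1673, 1715 and 1793 normalized counts with KPT, against 1326, 1328 and 709.8 with DMSO, and changed by 0.68 ± 0.11 (limma adjusted p = 1.22e-06). Replicate C of DMSO was far below the others, and without it the change was 0.38 (adjusted p = 9.61e-07). RPSA then no longer had the largest rise, as RPS27L changed by 0.63 without that library. RPL39, a short protein at the exit tunnel of the large subunit, had 612, 618 and 606 normalized counts with KPT, against 499, 412 and 326 with DMSO, a change of 0.59 ± 0.10 (limma adjusted p = 1.91e-06). Without replicate C of DMSO the change of RPL39 was 0.43 (limma adjusted p = 0.000215). The groups did not overlap for RPSA or for RPL39.

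With PU, 63 of 74 genes rose against DMSO and 2 fell, where 27.6% of genes tested rose and 27.5% fell. The median log2 fold change was 0.27 over the 74 genes and 0.0069 over all genes tested. Large-subunit genes rose in 38 of 44 cases, with 1 fall, and small-subunit genes in 25 of 28. Groups did not overlap for 57 genes (77%), against 61.2% of all genes tested. Of these, 55 were higher and 2 lower with PU, where the shares over all genes were 31.1% and 30.1%. KPT, PU and IB share the MAVER DMSO libraries, so their results are not independent. The genes not called with PU were RPL14, RPL17, RPL35, RPL41, RPL9, RPS26, RPS27, RPS27L and RPS3A.

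RPL13A, a large-subunit protein that can leave the ribosome in the interferon-gamma response to silence other mRNAs, had the largest rise with PU. Its normalized counts were 4822, 4689 and 4486 with PU and 3664, 3627 and 3728 with KPT, against 2615, 2503 and 2278 with DMSO. The KPT and PU libraries were all above the DMSO libraries, and those with PU were above those with KPT. The log2 fold change against DMSO was 0.92 ± 0.05 with PU (limma adjusted p = 1.64e-20) and 0.58 ± 0.05 with KPT (5e-14). RPL29 rose by 0.50 ± 0.06 with PU (limma adjusted p = 1.11e-09), with 2020.1, 2072 and 2117 normalized counts against 1479, 1643 and 1297 with DMSO. RPSA rose by 0.50 ± 0.11 with PU (limma adjusted p = 0.000155), and by 0.20 without replicate C of DMSO (0.00436). That call was lost in limma without the variance trend (adjusted p = 0.0554) and with DESeq2 (0.0627).

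RPL36A was the larger of the falls with PU. It had 12.2, 17.0 and 27.9 normalized counts with PU, against 24.9, 29.5 and 39.1 with DMSO, so the groups overlapped (-0.74 ± 0.28, limma adjusted p = 0.0227). These counts are low, the gene has near-identical pseudogene copies, and the call was lost without DMSO replicate C (-0.57, adjusted p = 0.135), PU replicate A (0.179) or PU replicate B (0.0594), with DESeq2 (0.0556), without the variance trend (0.0682) and with no filter on low values (0.0826).

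**Figure D2:**
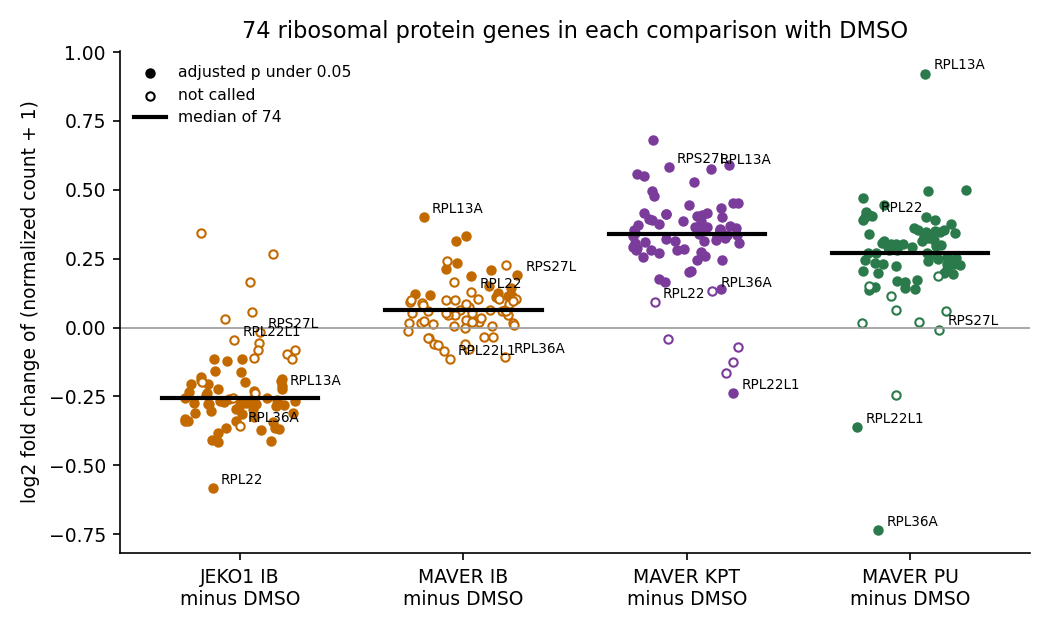
Log2 fold change of (normalized count + 1) against DMSO (y axis) for each of 74 ribosomal protein genes in 4 comparisons (x axis); filled points have a limma adjusted p under 0.05, open points do not, and the bar is the median. The medians are -0.26 for JEKO1 labelled IB, 0.06 for MAVER IB, 0.34 for KPT and 0.27 for PU, with RPL22, RPL13A and RPL36A away from the rest.

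With IB in MAVER the change was smaller and mostly under the threshold. Of the 74 genes, 17 rose and none fell, where 10.1% of genes tested rose and 9.65% fell, and the median log2 fold change was 0.06 (all genes tested, -0.0056). The groups did not overlap for 17 genes (23%), against 33.8% of all genes tested. All 17 were higher with IB, where 16.6% of all genes tested were higher without overlap and 17.2% lower. Small-subunit genes rose in 10 of 28 cases and large-subunit genes in 6 of 44. RPL13A again rose most, with 3132, 3368 and 3258 normalized counts with IB against 2615, 2503 and 2278 with DMSO, a change of 0.40 ± 0.05 (limma adjusted p = 3.15e-09). RPS29 rose by 0.33 ± 0.09 (limma adjusted p = 0.00406) and RPSA by 0.31 ± 0.11 (0.0351). Without replicate C of DMSO, neither was called: RPS29 changed by 0.15 (0.186) and RPSA by 0.01 (0.925). RPS29 also missed the threshold without IB replicate B (0.0837), and RPSA without any 1 of the IB libraries (0.054 to 0.101). Both calls were also lost without the variance trend (0.177 for RPS29, 0.338 for RPSA), with no filter on low values (0.0547 and 0.197) and with DESeq2 (0.159 and 0.48), and that of RPSA with edgeR (0.0526) and with upper-quartile scaling (0.0557). The count of 17 was 10 without DMSO replicate C, 11 without DMSO replicate B, 8 without IB replicate A and 5 without IB replicate B. Without IB replicate A, 1 gene was called lower.

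In JEKO1 the libraries labelled IB had lower values than those labelled DMSO for 57 of 74 genes and higher values for none by limma (adjusted p under 0.05), where 20.2% of 11609 genes tested were lower and 21.9% higher. The median log2 fold change was -0.26 over the 74 genes and -0.0062 over all genes tested. Large-subunit genes were lower in 37 of 44 cases and small-subunit genes in 20 of 28. Groups did not overlap for 47 genes (63.5%), against 50.2% of all genes tested. Of these, 46 were lower and 1 higher in the libraries labelled IB, where the shares over all genes were 24.8% and 25.4%. The 17 genes not called include RPL17, RPL36A, RPL41, RPS26, RPS27 and RPS28, which all have a mean under 200 normalized counts in either table.

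RPL22, an RNA-binding large-subunit protein that cells can replace with its paralog RPL22L1, stood furthest down. It had 1375, 1448 and 1448 normalized counts in the libraries labelled IB, against 2108, 2169 and 2114 in those labelled DMSO, which is -0.58 ± 0.05 on the log2 scale (SE; limma, adjusted p = 2.81e-09). The replicates were close and the groups far apart. RPL11 changed by -0.41 ± 0.05 (limma adjusted p = 5.53e-07), with 11280, 11206 and 12145 normalized counts labelled IB against 14586, 14889 and 16697 labelled DMSO, and RPL5 by -0.34 ± 0.04 (8.92e-07). The stalk genes were lower too: RPLP0 changed by -0.16 ± 0.05 (limma adjusted p = 0.00726), RPLP1 by -0.37 ± 0.08 (0.000665) and RPLP2 by -0.28 ± 0.06 (0.00108). RPLP0 was no longer called without DMSO replicate A (0.0517) or B (0.0561), and none of the 3 was called by limma without the variance trend (0.121, 0.0777 and 0.0825).

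The difference of the IB effect between the lines was tested itself on 12 libraries, with the MAVER effect subtracted from the JEKO1 effect. It was below 0 for 54 of 74 genes by limma (adjusted p under 0.05) and above 0 for none, where 19.6% of 10632 genes tested were below and 21.7% above. Without the variance trend 1 gene was called above 0, as was 1 without replicate B of JEKO1 labelled IB. The median difference of log2 fold changes was -0.32 over the 74 genes and 0.0014 over all genes tested. All 12 genes called with IB in both lines were lower in JEKO1 labelled IB and higher in MAVER with IB. Of all genes called in both lines, 1260 of 1415 (89.0%) went in opposite directions, so the 12 are near that share. Called or not, 60 of the 74 genes were negative in JEKO1 and positive in MAVER, and no such share over all genes was taken. RPL22 differed most, by -0.71 ± 0.07 (limma adjusted p = 5.87e-09), with -0.58 in JEKO1 and 0.13 in MAVER (adjusted p = 0.107). RPL13A differed by -0.63 ± 0.08 (limma adjusted p = 1.12e-06), with -0.22 in JEKO1 and 0.40 in MAVER. These signs rest on the labels of both lines as given.

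The paralog pairs are given gene by gene, and differences between paralogs were not tested. RPL22 rose with PU by 0.41 ± 0.06 (limma adjusted p = 7.7e-08) and was not called with KPT (0.09 ± 0.06, 0.167). Its normalized counts were 1153, 1333 and 1186 with KPT and 1551, 1581 and 1429 with PU, against 1181, 1139 and 1119 with DMSO; KPT and DMSO overlapped, and all PU libraries were above both. RPL22L1, in contrast, was called lower with KPT and with PU. It had 194, 210.3 and 209 normalized counts with KPT and 181, 213 and 171 with PU, against 231, 233 and 260.3 with DMSO. The changes were -0.24 ± 0.10 with KPT (limma adjusted p = 0.035) and -0.36 ± 0.10 with PU (0.00174). The KPT call was lost without DMSO replicate C (-0.18, adjusted p = 0.161) or KPT replicate A (0.114), with upper-quartile scaling (0.0542) and with DESeq2 (0.0838). Without the KPT libraries rich in RNA45S5, which leaves KPT replicate B alone, the change was -0.20. The call with PU was kept without any single library (up to 0.0191). In JEKO1, RPL22L1 changed by -0.05 (limma adjusted p = 0.757) beside the -0.58 of RPL22.

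RPS27L, a paralog of RPS27 known as a p53 target gene, rose with KPT and not with PU. Its normalized counts were 1098, 1149.9 and 1090.2 with KPT, 731, 801 and 689 with PU and 813, 869 and 861 with IB, against 699, 741 and 791 with DMSO. KPT libraries were above all others, whereas PU and DMSO overlapped. The log2 fold change was 0.58 ± 0.06 with KPT (limma adjusted p = 6.75e-11), -0.01 ± 0.06 with PU (0.926) and 0.19 ± 0.06 with IB (0.0187; up to 0.147 with a library left out). RPS27 itself had only 7.32 to 19.5 normalized counts in any library and was called in no comparison with DMSO. Its reads may be split with pseudogene copies, so its level and changes are uncertain.

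**Figure D3:**
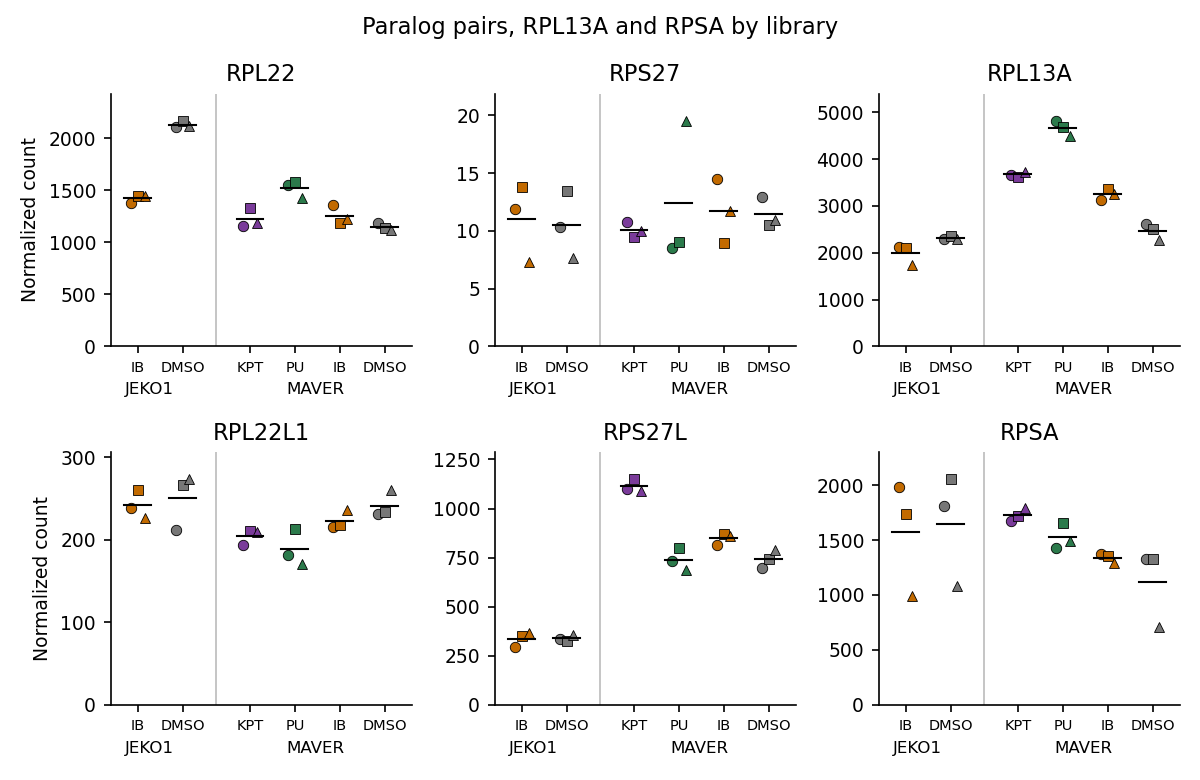
Normalized counts (y axis, from 0) of RPL22, RPL22L1, RPS27, RPS27L, RPL13A and RPSA in each library by group (x axis), with JEKO1 left of the line and MAVER right of it; circles, squares and triangles are replicates A, B and C and bars are means. RPS27L is highest with KPT and RPL13A with PU, and RPSA is low in replicate C of both JEKO1 groups and of MAVER DMSO.

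Set against each other by limma, KPT and PU differed for 21 of the 74 genes: 19 were higher with KPT and 2 lower, where 28.6% of genes tested were higher and 28.3% lower. Groups did not overlap for 26 genes (35.1%), against 60.6% of all genes tested. Of these, 22 were higher and 4 lower with KPT, where the shares over all genes were 30.4% and 30.2%. The median was 0.08 over the 74 genes and 0.0058 over all genes tested. The largest differences with KPT higher were RPL36A (0.87 ± 0.28, limma adjusted p = 0.00723) and RPS27L (0.59 ± 0.06, 4.47e-11), and the genes with KPT lower were RPL13A (-0.34 ± 0.05, 2.43e-08) and RPL22 (-0.31 ± 0.06, 9.35e-06). RPL36A was no longer called without KPT replicate C (0.078) or PU replicate A (0.0773). Without both KPT libraries rich in RNA45S5, the ribosomal RNA precursor, RPL36A differed by 0.45. That value rests on KPT replicate B alone. The count of 19 was 10 without KPT replicate C, 12 without PU replicate C, and 32 when libraries were scaled to the totals of other genes. Without those RNA45S5-rich libraries only KPT replicate B is left, and the median over the 74 genes was 0.06. RNA45S5 had 53819, 9092 and 66933 normalized counts with KPT, and the 74 genes' shares of reads there were 5.88%, 5.96% and 6.02%.

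Against IB, 66 of 74 genes were higher with KPT and none lower, where 27% of genes tested were higher and 28.2% lower (median 0.27, against 0.0052 over all genes tested). With PU against IB, 57 were higher and 2 lower, where 27.5% and 27.6% of genes tested were so (median 0.20, against 0.0052). The doses of IB and KPT differ, and that of PU is not stated. The MAVER group means stood in the order KPT, PU, IB, DMSO for 44 genes. KPT was highest of the 4 groups for 54 genes, PU for 18, DMSO for 2 and IB for none, and DMSO was lowest for 58. For these counts of ordered, highest and lowest means, no share over all genes was taken. Between neighbours in that order, 19 genes were called higher with KPT than PU, 57 higher with PU than IB and 17 higher with IB than DMSO. Over all genes tested the shares called higher were 28.6%, 27.5% and 10.1%, so the count for KPT over PU is not above the background.

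A few genes varied within groups in a shared way. RPSA had 991.9 normalized counts in replicate C of JEKO1 labelled IB, where A and B had 1979.7 and 1734. It had 1083 in replicate C of JEKO1 labelled DMSO, where A and B had 1813 and 2054, and 709.8 in replicate C of MAVER DMSO, where A and B had 1326 and 1328. Replicate C was thus at 0.534, 0.560 and 0.535 of the mean of A and B in these 3 groups. Looked for after the values were seen, RPSA, RPL39, RPS29 and RPS27A were the 4 genes with a ratio under 0.8 in all 3 groups. In MAVER the same ratio for RPSA was 1.06 with KPT, 0.969 with PU and 0.943 with IB. Over all 74 genes the median ratio was 1.02 in JEKO1 labelled IB, 0.988 in JEKO1 labelled DMSO and 1.02 in MAVER DMSO, so most genes did not share the shortfall. RPS27A, which encodes a ubiquitin fused to a small-subunit protein, rose with KPT by 0.56 ± 0.07 (limma adjusted p = 1.2e-08). It had 3405, 3753 and 3901 normalized counts with KPT, against 2757, 2831 and 2003 with DMSO. With IB in MAVER, where RPS27A was also called higher, it had 2773, 2994 and 3068. No value of RPS27A without replicate C of DMSO is given here, and both rises are set against that low library. The part of these 3 libraries in the results of the 4 genes beyond the left-out values above was not tested.

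**Figure D4:**
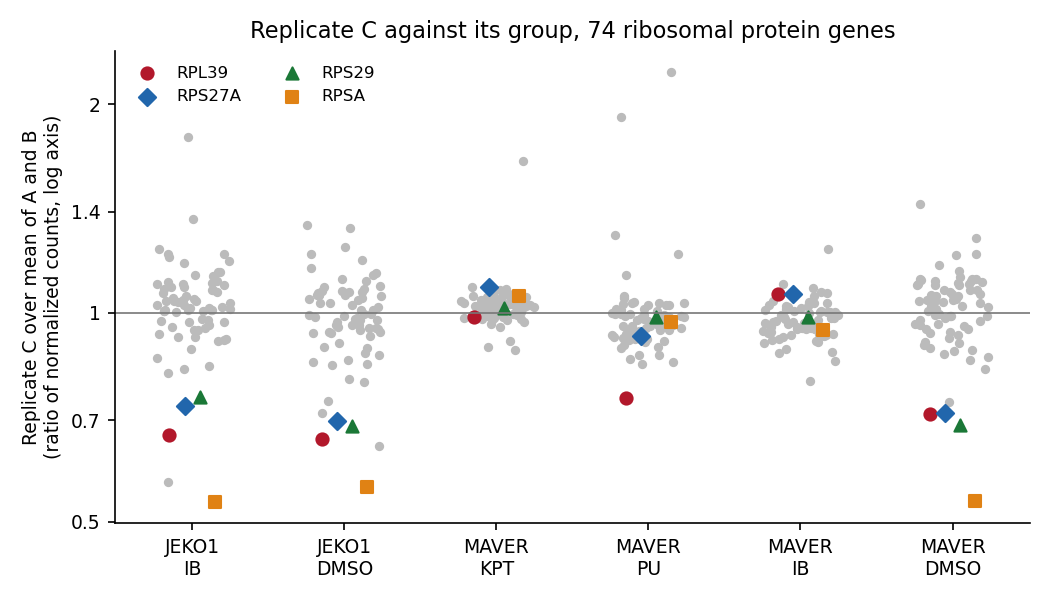
Ratio of the normalized count in replicate C to the mean of replicates A and B (y axis, log scale) for 74 ribosomal protein genes (points) in each of 6 groups (x axis). RPSA lies near 0.53 to 0.56 in JEKO1 IB, JEKO1 DMSO and MAVER DMSO and near 1 in the other MAVER groups.

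Genes of related lists were read beside the members; all MAVER comparisons with DMSO share the same DMSO libraries. Of 17 other TOP mRNAs, which encode translation factors and related proteins, 9 rose and 2 fell with KPT (median 0.16), 13 rose and 2 fell with PU (0.30), 1 rose and 2 fell with IB in MAVER (0.06), and 13 were lower in JEKO1 labelled IB (-0.25). Over all genes tested, 27.3% rose and 28.5% fell with KPT, 27.6% and 27.5% with PU, and 10.1% and 9.65% with IB in MAVER, and 20.2% were lower in JEKO1 labelled IB. The IB counts in MAVER are thus near the share over all genes. TPT1, a translationally controlled protein, rose by 0.40 ± 0.04 with KPT (limma adjusted p = 2.22e-11) and by 0.63 ± 0.04 with PU (2.56e-17). In JEKO1 labelled IB, TPT1 changed by -0.34 ± 0.04 (1.54e-06). EEF1G, a subunit of elongation factor 1, rose by 0.32 ± 0.04 with KPT (limma adjusted p = 7.33e-09) and 0.56 ± 0.04 with PU (3.74e-15).

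The factors that mature and export pre-ribosomal subunits fell more often than they rose with KPT and PU. Of 21, 14 fell and 3 rose with KPT (median -0.30), and 12 fell and 3 rose with PU (-0.36), where 28.5% and 27.5% of all genes tested fell. With IB in MAVER 1 fell and none rose, and in JEKO1 labelled IB 2 were lower and 1 higher. Over all genes tested, 27.3% rose with KPT and 27.6% with PU, and with IB in MAVER 9.65% fell and 10.1% rose. In JEKO1 labelled IB, 20.2% of all genes tested were lower and 21.9% higher. PNO1, which acts in late small-subunit maturation, had 418, 449 and 431 normalized counts with KPT, against 864, 833 and 850.5 with DMSO, a change of -0.97 ± 0.06 (limma adjusted p = 8.9e-17). GTPBP4, a nucleolar GTPase of the large subunit, fell by 0.81 on the log2 scale with KPT (SE 0.05, limma adjusted p = 5.38e-16). PA2G4, a ribosome-associated protein, changed by -0.75 ± 0.04 with PU (limma adjusted p = 2.97e-19). NMD3, the adaptor that links the large subunit to XPO1, rose with KPT by 0.26 ± 0.06 (limma adjusted p = 0.000662) and had 0.04 ± 0.06 with PU (0.61).

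Of 13 regulators of ribosomal protein mRNA, 3 rose and 7 fell with KPT, 4 rose and 6 fell with PU, 2 rose with IB in MAVER, and 2 were higher and 7 lower in JEKO1 labelled IB. The counts that rose are near the shares over all genes tested, which were 27.3% with KPT, 27.6% with PU and 10.1% with IB in MAVER. The shares that fell were 28.5% with KPT, 27.5% with PU and 9.65% with IB in MAVER. In JEKO1 labelled IB, 20.2% of all genes tested were lower and 21.9% higher. MYC, a transcription factor that drives ribosome production, had 7212, 7122 and 7774 normalized counts in JEKO1 labelled IB, against 11811, 11615 and 11836 labelled DMSO (-0.67 ± 0.04, limma adjusted p = 3.26e-11). In MAVER, MYC rose with IB by 0.20 ± 0.04 (0.000219) and with KPT by 0.31 ± 0.04 (1.73e-08), and had -0.07 ± 0.04 with PU (0.17). MTOR and RPTOR, the kinase and a partner of the complex that controls TOP mRNAs, changed by -0.84 ± 0.05 (limma adjusted p = 1.09e-16) and -0.80 ± 0.06 (5.13e-15) with KPT. With PU, RPTOR rose by 0.61 ± 0.06 (limma adjusted p = 1.01e-11). EIF4EBP1, a translation repressor that mTOR inactivates, had 1216, 1167 and 1267 normalized counts with PU, against 356, 337 and 363 with DMSO (1.79 ± 0.07, 3.83e-23). MTOR was lower with PU, at 1590, 1506 and 1699 against 1788, 1818 and 1778 with DMSO. So was MLST8 of the same list, at 731, 707 and 775 against 870, 842 and 911. LARP1 had 5593, 5222 and 5234 with KPT and 6040, 5849 and 6379 with PU, against 7236, 7468 and 7239 with DMSO.

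Ribosomal protein genes with other kinds of symbol were fewer. Of 7 tested in MAVER, 6 rose with KPT, and 2 rose and 3 fell with PU, where 27.3% of all genes tested rose with KPT, and 27.6% rose and 27.5% fell with PU. The number that rose with PU is near that share. Genes with and without a listed TOP start had median log2 fold changes of 0.36 over 44 and 0.31 over 17 with KPT, 0.29 and 0.23 with PU, and -0.26 and -0.21 in JEKO1 labelled IB. In JEKO1, 35 of the 44 and 10 of the 17 were called lower. The IB effect in JEKO1 minus that in MAVER had medians of -0.34 and -0.22, with 34 of 44 and 9 of 17 called below 0. A run of this form lay within 5 bases of a listed start in 51 of the 61 genes, so some of the 17 carry it nearby. The differences between genes with and without a listed TOP start were not tested.

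**Figure D5:**
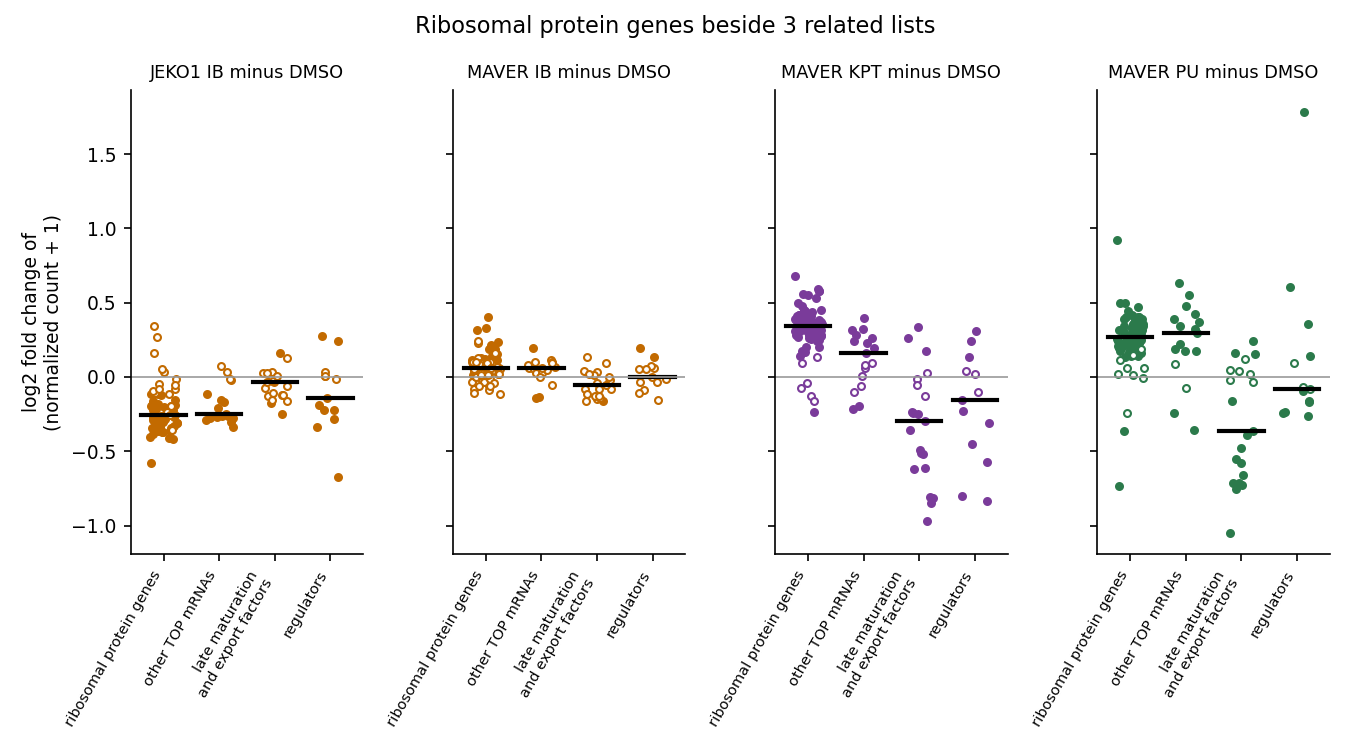
Log2 fold change of (normalized count + 1) (y axis) for the 74 ribosomal protein genes, 17 other TOP mRNAs, 21 late maturation and export factors and 13 regulators (x axis), 1 panel per comparison with DMSO; filled points have a limma adjusted p under 0.05 and bars are medians. With KPT the medians are 0.34 for ribosomal protein genes and -0.30 for the maturation and export factors.

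Over the 12 MAVER libraries, the genes outside the list whose log2 values were most like the mean of the 74 were LOC101927027 (Pearson r = 0.990), PRMT2 (0.988), BNIP3L (0.985), SLU7 (0.985), PNRC1 (0.984) and TXNIP (0.982). The libraries come from 4 groups that differ in many genes, so these values describe likeness over those groups only.

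The 5 symbols that fitted the rule and were under the minimum included RPL21, listed at 0 in all libraries, RPS18, RPS10 and RPL7. RPS10 lay just outside, with mean normalized counts of 9.77 in JEKO1 and 9.27 in MAVER, and RPL7 with 7.75 and 17.5, whereas RPS27 lay just inside, with 10.7 and 11.4. Reads of 50 bp from genes with near-identical pseudogenes can be discarded or split, so a low value here need not mean low expression.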

How the data were processed

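Per the labels' protocols, stranded TruSeq libraries were sequenced as single-end reads of 50 bp, aligned to the transcriptome with STAR, and abundance was estimated with Cufflinks. The submitters' processing notes name hg19; which tool counted reads, with which annotation and strand setting, is not stated. The deposited values are normalized counts, a signal per gene made by the authors, in 1 table per line. Whole reads were recovered by dividing by each library's smallest value above 0, which gave whole numbers within 0.01 read for 100% of values. Of the 18 libraries, no replicate pair agreed within sampling noise: chi-square per degree of freedom was 1.41 to 5.15. Recovered totals were 5374226 to 17040599 reads per library, and at that depth genes of a few counts are imprecise.

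Tests used limma 3.58.1 in R 4.3.3 (lmFit, eBayes with trend). They ran on log2(normalized count + 1) of genes averaging at least 10 in the table, with Benjamini-Hochberg adjustment over all of them. The 4 MAVER groups were fitted together, so a lone or divergent library shares their spread. Fold changes on this scale understate the change of genes with few reads. The test was checked on simulated data. Named genes are the 3 called members with the largest rise and fall per comparison with DMSO and for the difference between lines, the pairs RPL22 and RPL22L1, RPS27 and RPS27L, and RPL5, RPL11, RPLP0 to RPLP2 and RPSA. They also include the 2 members of each other list with the smallest p per comparison and the 6 most alike genes; RPS27A, NMD3 and a few values of listed genes in further comparisons were chosen after their values were seen. A few genes under this rule are left out of the text. The members and lists were chosen with earlier results of these data known. Alternatives were other pseudocounts, filters and scalings, no trend, a replicate block, compared groups alone, left-out libraries, and edgeR 4.0.16 and DESeq2 1.42.0 on recovered reads. Promoter sequences are RefSeq's (GRCh38.p14), and the files' build differs, so no other coordinates are given.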

Additional observations from a re-analysis of the deposited data

Results flagged for a closer look

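The IB effect differed between the lines by the test of the difference itself (limma, Benjamini-Hochberg adjusted p under 0.05) for 54 of 74 ribosomal protein genes, each lower in JEKO1. Among the named genes the difference of log2 fold changes, JEKO1 minus MAVER, was -0.71 for RPL22, -0.63 for RPL13A, -0.45 for RPLP1, -0.43 for RPL11, -0.42 for RPL5, -0.29 for RPLP0 and -0.28 for RPLP2. The direction rests on the labels of both lines, and exchanged labels in either line cannot be told apart from an opposite response. RPLP2 missed the threshold without JEKO1 IB replicate C (adjusted p = 0.071), JEKO1 DMSO replicate B (0.0764), MAVER DMSO replicate C (0.08) or MAVER IB replicate A (0.0801), with DESeq2 (0.129) and without the variance trend (0.142).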

How the results depend on the processing

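No count and no called value of a named gene changed direction under any alternative run. Direction was not followed for the other genes 1 by 1. Against the main direction, 1 gene was called lower with IB in MAVER without IB replicate A. For the difference between lines, 1 gene was called above 0 without the variance trend, and 1 without replicate B of JEKO1 labelled IB. The counts of genes called with KPT (67 rose), PU (63), KPT against IB (66) and PU against IB (57), and of the difference between lines (54), stayed within 1.5 times under all of them. In JEKO1, 57 became 35 without the variance trend. For IB in MAVER, 17 became 7 with no filter on low values, 6 with upper-quartile scaling and 3 without the trend, and 5 to 17 with a library left out. For KPT against PU, 19 became 10 with no filter, 29 with equal totals, 8 with upper quartiles, 32 with the totals of other genes, 6 without the trend, 9 without libraries rich in RNA45S5, and 10 to 24 with a library left out. The cause was not tested.

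Over all genes, the deviations of replicates with the same letter correlated at -0.238 to 0.296 and were not over 0.1 in every pair of any comparison, so the letters were not taken as pairs. RPSA, RPL39, RPS29 and RPS27A were still low together in replicate C of 3 groups. With the replicate letter as a block, 63 genes were called lower in JEKO1, 18 higher with IB in MAVER, 67 with KPT, 63 with PU, 66 for KPT against IB, 21 for KPT against PU, 57 for PU against IB and 61 for the difference between lines. Of results for single genes, 5616 kept their direction and side of the threshold, 284 lost and 83 gained a call, and 121 values that were never called changed sign. Depth limits genes such as RPS27, at 7.32 to 19.5 normalized counts.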
